A study of Rattus norvegicus with 4 samples.

Results

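The miR-17-92 cluster and its paralog miR-106b-25 were followed through small RNA libraries of rat exosomes, membrane-bound vesicles shed by cells. Members were chosen by the name of the precursor hairpin, which is rno-mir-17, rno-mir-18a, rno-mir-19a, rno-mir-19b, rno-mir-20a or rno-mir-92a for miR-17-92 and rno-mir-106b, rno-mir-93 or rno-mir-25 for miR-106b-25. These are 9 of the 262 named rat miRNAs with a count. Their hairpins can give 18 mature forms, counting both arms, of which 12 had a count in at least 1 library and 6 had none. A total of 5 forms were counted in all 3 libraries that have tag counts.

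Exosomes of adipose tissue (Exo-AT) were collected from minced fat of SD rats aged 4 weeks, whose explants conditioned 75 mL of α-MEM in a flask stirred at 100 rpm over 3 days. Exosomes of adipose stem cells (Exo-ADSCs) were collected from passage 3 cells after 3 days in serum-free medium, with penicillin and streptomycin in both cultures. Total RNA was made into libraries of inserts from 15 to 35 nt and sequenced for 36 cycles on an Illumina HiSeq. There are 2 libraries per group, and tag counts (a tag is one distinct read sequence) were used for Exo-AT replicates 1 and 2 and Exo-ADSCs replicate 2. Explants hold fat cells, vessels, blood and immune cells beside the stem cells, so the groups differ in cell types and in culture form at once, and these cannot be told apart. The labels do not state whether replicates are separate animals or cultures, so a p-value here reflects only how far these samples spread, which may be technical.

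A miRNA is cut from one arm of a hairpin and guides Argonaute proteins to messenger RNAs that pair with its seed, bases 2 to 8. In the mouse and in humans miR-17-92 is best known as a Myc-activated transcript that promotes cell cycling and survival, and miR-106b-25 lies within an intron of the replication gene Mcm7 and shares its miR-17 and miR-92 seeds. The members fall into 4 seed families: miR-17 (miR-17, miR-20a, miR-106b and miR-93, known for repressing the cell cycle inhibitor p21 and the TGF-β receptor), miR-18, miR-19 (miR-19a and miR-19b) and miR-92 (miR-92a and miR-25). In fat cell cultures miR-17-92 has been described as raised early in adipogenesis, and miR-92a and miR-25 are also abundant in human red blood cells.

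The mature sequences, from RefSeq (build GRCr8), show which members share a seed, which is in capitals. The last one, from the other arm of the miR-106b hairpin, has a seed of its own.
miR-17-5p: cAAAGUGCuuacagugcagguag
miR-20a-5p: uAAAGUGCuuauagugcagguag
miR-106b-5p: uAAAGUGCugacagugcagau
miR-93-5p: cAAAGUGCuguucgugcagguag
miR-18a-5p: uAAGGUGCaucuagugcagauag
miR-19a-3p: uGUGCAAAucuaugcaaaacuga
miR-19b-3p: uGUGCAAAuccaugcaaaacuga
miR-92a-3p: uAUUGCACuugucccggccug
miR-25-3p: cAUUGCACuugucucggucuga
miR-106b-3p: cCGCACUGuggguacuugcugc

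In GRCr8 the 6 hairpins of miR-17-92 span 785 bp at chr15:98587848-98588632 on the plus strand. The 3 hairpins of miR-106b-25 span 494 bp at chr12:22156641-22157134 on the minus strand, inside the span of Mcm7 (chr12:22155921-22163320). Further copies of miR-17, miR-19b and miR-92a lie on the X chromosome (chrX:137342928-137343647, minus strand), and copies with the same mature sequence were summed. The sequences and positions are those of GRCr8, while the submitters' processing notes name rn6, so no position from the alignment is given here.

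The libraries differed in depth and in makeup. The Exo-AT libraries held 9134 and 136024 counts on named miRNAs, and Exo-ADSCs replicate 2 held 97204. Hairpins that the authors predicted themselves took a further 39.9% and 24.9% of all assigned counts in the Exo-AT libraries, against 86.4% in Exo-ADSCs replicate 2. The tag files list no tag under 2 reads, so a count of 0 says only that no tag of that form was listed. Both Exo-AT tag files carry the same sample name inside. Their counts differed by more than counting noise over 183 miRNAs (chi-square 1723 on 182 degrees of freedom, p = 8.57e-249), so the files are not copies of one another and were kept as 2 libraries, as labelled. That test treats reads as independent and does not show whether the libraries came from separate samples. With 1 library, Exo-ADSCs values from tag counts carry no SD. The authors' deposited table of normalized reads has headings that go against the labels of the tag files. Over 43 miRNAs, its column headed exo-at1 followed the tag file of Exo-AT replicate 2 (40 within 5% of 1 common ratio) and not that of replicate 1 (5 of 43). The column headed exo-at2 followed the most abundant tag of Exo-AT replicate 1 (27 of 43 within 5%). Both lie in the same group, so no direction between the groups rests on this. Levels are CPM, counts scaled to a common library size, after TMM scaling, which corrects for differences in makeup between libraries. The number of vesicles and the amount of miRNA in each vesicle cannot be told apart in such libraries.

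The clusters took a larger share of the named miRNA counts in Exo-AT than in Exo-ADSCs, and most of it in Exo-AT was miR-25-3p (65.8% and 59.8% of member counts in Exo-AT against 30.5% in Exo-ADSCs). The 9 members held 2.15% (95% Wilson interval 1.87 to 2.46) and 1.82% (1.75 to 1.89) of named counts in Exo-AT replicates 1 and 2, against 0.478% (0.437 to 0.524) in Exo-ADSCs replicate 2. These intervals cover counting error only, since the reads carry no molecular identifiers. With the predicted hairpins in the denominator the shares were 1.29% and 1.37% in Exo-AT against 0.0650% in Exo-ADSCs. A higher share in Exo-AT was not particular to the members. Scaled to total named counts, the median log2 fold change of all 183 tested miRNAs was itself 1.21. It was 3.09 for miR-25-3p and 1.04 for miR-92a-3p on that scale. Scaled to all assigned counts, the median over 169 tested miRNAs was 3.88. Within the member counts, miR-106b-25 made up 73.0% and 69.6% in Exo-AT, against 43.0% (38.6 to 47.5) in Exo-ADSCs. The rest was miR-17-92 together with the X-linked copies of miR-17, miR-19b and miR-92a, which were summed with it. For miR-92a, 26 of 45 and 280 of 654 counts in Exo-AT lay on tags shared by both copies, against 136 of 229 in Exo-ADSCs.

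Of the 12 counted forms 8 passed the filter on low counts and were tested, and 2 of them, miR-25-3p and miR-19b-3p, were called higher in Exo-AT (edgeR, quasi-likelihood test, Benjamini-Hochberg adjustment over all 183 miRNAs tested). In the same fit 19.1% of all tested miRNAs were called higher in Exo-AT and 19.7% lower, and no member form was called lower, with none at an unadjusted p under 0.05 in that direction. DESeq2 called 1 member higher and 0 lower, where 11.5% of all tested miRNAs were higher and 11.5% lower. With DESeq2's size factors in edgeR 1 form was called higher, where 12.6% of all tested were higher and 16.4% lower, and with total-count scaling 4 forms were, where 25.1% were higher and 10.4% lower. Scaled to all assigned counts, an alternative chosen after seeing the data, 5 forms were called higher, where 63.3% of 169 tested miRNAs were higher and 2.96% lower. Both Exo-AT libraries lay above Exo-ADSCs replicate 2 for 4 of the 8 tested forms, a pattern that 39.3% of all tested miRNAs showed, and both lay below it for 2 of 8, against 37.7% of all tested. The median log2 fold change of the 8 forms was 0.79, against 0.38 over all 183. A filter on low counts can keep a form through its high group alone, so these figures describe the 8 tested forms and not all members.

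**Figure D1:**
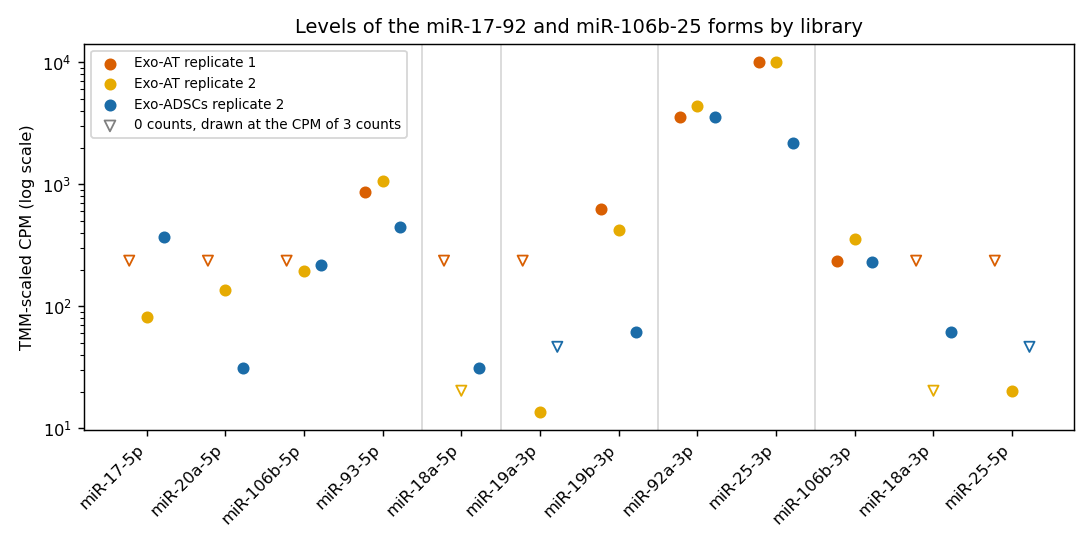
TMM-scaled CPM (log axis) of the 12 counted forms in each library, grouped by seed with the opposite-arm products at the right. Filled points are measured levels and open triangles mark 0 counts, drawn at the CPM that 3 counts would give. miR-25-3p, at 10176 and 10011 CPM in Exo-AT against 2202 CPM in Exo-ADSCs replicate 2, stands apart between the groups, whereas miR-92a-3p overlaps.

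miR-25-3p, a miR-92-seed member made from the last hairpin of miR-106b-25, was the most abundant member in Exo-AT. It had 129 and 1479 counts in Exo-AT against 142 in Exo-ADSCs replicate 2, which gives 10176 and 10011 CPM (mean 10094 ± 117, SD, n = 2) against 2202 CPM. Both Exo-AT libraries were high and close together, and the groups did not overlap. The log2 fold change of miR-25-3p was 2.20 (SE 0.36), a 4.58-fold difference, with an adjusted p of 6.82e-08 by edgeR. Relative to the median of all tested miRNAs the log2 difference was 1.82. By counts miR-25-3p ranked 12 of 140 and 13 of 244 forms in the Exo-AT libraries and 37 of 264 in Exo-ADSCs replicate 2. The call was kept under every alternative with a test, but its size moved. The log2 fold change was 1.37 (adjusted p = 0.0242, edgeR, the highest of its alternatives) with tags of 20 to 25 nt alone and 3.09 when libraries were scaled to their total named counts. Scaled to all assigned counts, predicted hairpins included, it was 5.39, where the median of all tested miRNAs was itself 3.88.

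miR-92a-3p, the miR-92-seed member at the end of miR-17-92, did not pass the test. It had 45 and 654 counts in Exo-AT against 229 in Exo-ADSCs replicate 2. Its level was 3550 and 4427 CPM (3988 ± 620, SD, n = 2) in Exo-AT against 3551 CPM in Exo-ADSCs, so that the Exo-ADSCs library lay within the Exo-AT range. The log2 fold change of miR-92a-3p was 0.18 (SE 0.36, adjusted p = 0.728, edgeR). Without Exo-AT replicate 2 it was -0.00056. This near-zero value depended on scaling: it was -0.10 with DESeq2's size factors and 1.04 with total-count scaling, where it passed the test (adjusted p = 0.0450, edgeR). Over its alternatives the adjusted p of miR-92a-3p ran between 6.43e-13, with all assigned counts, and 0.959. In Exo-ADSCs miR-92a-3p was the most abundant member and ranked 22 of 264 forms, close to its ranks of 20 and 19 in the Exo-AT libraries.

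Since these differences shift with scaling, both miR-92-seed members were also set against each other within each library, where no scaling enters. There were 2.87 counts of miR-25-3p per count of miR-92a-3p in Exo-AT replicate 1 (95% exact interval 2.03 to 4.12) and 2.26 (2.06 to 2.48) in Exo-AT replicate 2. In Exo-ADSCs replicate 2 the ratio was 0.620 (0.499 to 0.768). Thus miR-25-3p outnumbered its seed partner in both Exo-AT libraries and miR-92a-3p was the more frequent one in Exo-ADSCs. The ratio depended on short tags: with tags of 20 to 25 nt it was 2.79 and 2.14 in Exo-AT against 1.01 (0.771 to 1.32) in Exo-ADSCs. The groups stayed apart, but the balance in Exo-ADSCs was then near equal.

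**Figure D2:**
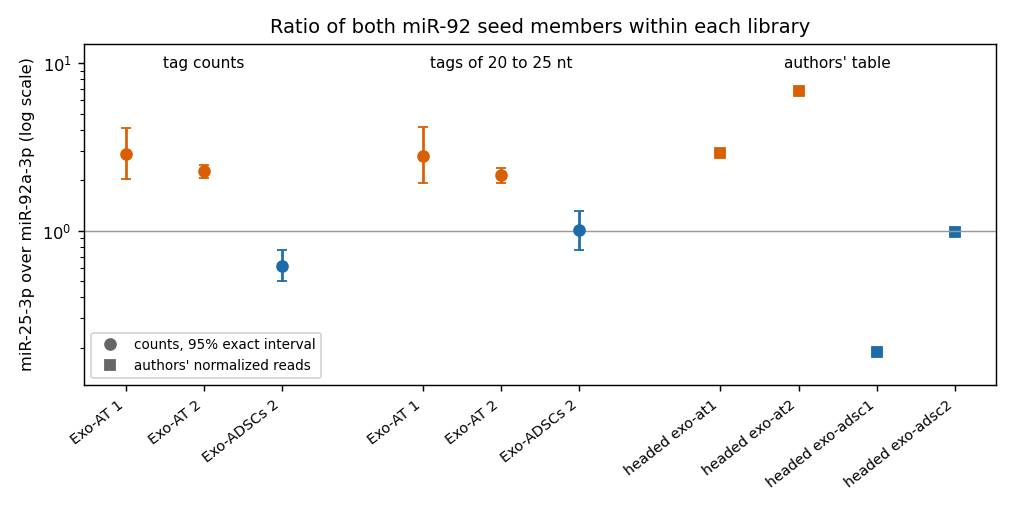
Ratio of miR-25-3p to miR-92a-3p within each library (log axis), from all tags, from tags of 20 to 25 nt and from the authors' deposited table, whose columns are given by their headings. Circles have 95% exact intervals for counting error and squares have none. Every Exo-AT value lies above 2 and every Exo-ADSCs value lies at 1.01 or below. Tag counts merge both miR-92a copies, while the columns headed exo-at1 and exo-adsc2 follow the tags of 1 hairpin per miRNA. The column headed exo-at2 follows the most abundant tag for 27 of 43 miRNAs, so the squares are not all the same measure.

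Among the miR-17-seed members, miR-93-5p was the most abundant and none passed the test. miR-93-5p, from miR-106b-25, had 11 and 158 counts in Exo-AT against 29 in Exo-ADSCs. Its level was 868 and 1069 CPM (969 ± 143, SD, n = 2) against 450 CPM, higher in both Exo-AT libraries. The log2 fold change of miR-93-5p was 1.13 (SE 0.72, adjusted p = 0.214, edgeR). It passed with total-count scaling (1.98, adjusted p = 0.0243, edgeR) and with tags aligned without mismatch (1.85, adjusted p = 0.0456, edgeR), and over its alternatives the adjusted p of miR-93-5p ran between 7.50e-09, with all assigned counts, and 0.651.

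miR-106b-5p, from the first hairpin of miR-106b-25, had 0 and 29 counts in Exo-AT against 14 in Exo-ADSCs replicate 2, or 0 and 196 CPM against 217 CPM. The Exo-AT libraries did not agree on its presence, and at the depth of replicate 1 a level of 3 counts would be 237 CPM, above that of both other libraries. Its log2 fold change was -0.57 (SE 1.38, adjusted p = 0.766, edgeR), and the sign turned with total-count scaling (0.17). Without Exo-AT replicate 2, which holds all of its Exo-AT counts, the fitted value of miR-106b-5p was -6.09, a size that depends on the prior count.

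miR-20a-5p, from miR-17-92, had 0 and 20 counts in Exo-AT against 2 in Exo-ADSCs, or 0 and 135 CPM against 31.0 CPM. Over both Exo-AT libraries pooled, after TMM scaling, the ratio to Exo-ADSCs was 4.02, with a counting interval of 0.977 to 35.5. The log2 fold change of miR-20a-5p was 1.68 (SE 2.65, adjusted p = 0.644, edgeR). All of its Exo-AT counts lay in replicate 2, so the direction of miR-20a-5p rests on 1 library. Without that library the value was -3.40, from 0 against 2 counts, a size that depends on the prior count. At the depth of replicate 1, 3 counts would be 237 CPM, above the level of both other libraries.

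miR-17-5p, the founding member of its seed family, had 0 and 12 counts in Exo-AT against 24 in Exo-ADSCs, and its log2 fold change of -2.46 (SE 1.40, adjusted p = 0.159, edgeR) did not pass. Without Exo-AT replicate 2 the value of miR-17-5p was -6.86, from 0 against 24 counts, a size that depends on the prior count. Its counts in the groups were different sequences. The 12 counts of Exo-AT replicate 2 were the full mature sequence, which was listed 0 times in Exo-ADSCs. The 24 counts of Exo-ADSCs were 13 and 11 reads of a pair of short tags that begin before the mature miRNA and hold only its first 8 bases, in capitals below.
full mature miR-17-5p: caaagtgcttacagtgcaggtag
16 nt tag of Exo-ADSCs: gattatgtCAAAGTGC
15 nt tag of Exo-ADSCs: attatgtCAAAGTGC
Each short tag also carries a mismatch to the hairpin (A4T in the 16 nt tag and A3T in the 15 nt tag, counted from 1 at the tag's 5′ end, hairpin base first). When a tag had to hold bases 3 to 12 of the mature miRNA, an alternative chosen after seeing the data, miR-17-5p had 0 counts in Exo-ADSCs and was no longer tested.

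**Figure D3:**
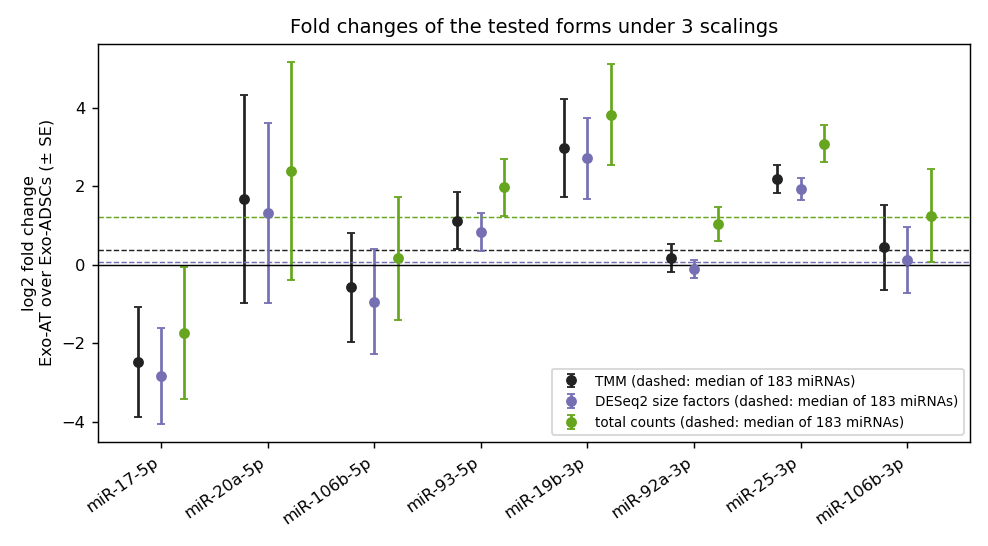
Log2 fold change of Exo-AT over Exo-ADSCs (± SE) for the 8 tested forms with TMM scaling, DESeq2's size factors and total-count scaling, all in edgeR. Dashed lines are the medians of all 183 tested miRNAs, at 0.38, 0.08 and 1.21. miR-25-3p lies above the median under each scaling, whereas miR-92a-3p and miR-106b-5p change sign.

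The miR-19 seed members, which in mouse lymphoma models carry much of the oncogenic activity of miR-17-92, were rare in all libraries. miR-19b-3p had 8 and 63 counts in Exo-AT against 4 in Exo-ADSCs. Its level was 631 and 426 CPM (529 ± 145, SD, n = 2) against 62.0 CPM, with both Exo-AT libraries higher. It was called higher in Exo-AT with a log2 fold change of 2.98 (SE 1.24, adjusted p = 0.0453, edgeR). A ratio of pooled Exo-AT counts to Exo-ADSCs, also after TMM scaling, was 7.14, with a counting interval of 2.67 to 26.9. The pooled counts include the hairpin end tag described below. The call was lost with DESeq2's size factors (log2 fold change 2.71, adjusted p = 0.119, edgeR), and over all alternatives with a test the adjusted p of miR-19b-3p ran between 2.72e-07, with all assigned counts, and 0.276, with tags of 20 to 25 nt, where its log2 fold change was 1.51.

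A part of the miR-19b-3p counts in Exo-AT was not the mature miRNA. A 16 nt tag from the end of the hairpin, with 4 bases in common with the mature sequence and a mismatch in capitals (G13A), gave 4 of 8 and 15 of 63 counts in Exo-AT against 0 of 4 in Exo-ADSCs. The most frequent tag of the mature form in Exo-AT replicate 2 is shown with it.
hairpin end tag: ctgactgtggtgAtgg
mature miR-19b-3p tag: tgtgcaaatccatgcaaaactg
The mature tag had 2 and 44 counts in Exo-AT against 0 in Exo-ADSCs, whose 4 counts were a form shorter at the 3′ end. With tags holding bases 3 to 12 alone, the log2 fold change of miR-19b-3p was 2.26 (adjusted p = 0.129, edgeR). miR-19a-3p had 0 and 2 counts in Exo-AT against 0 in Exo-ADSCs, and was not tested.

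miR-18a was counted in Exo-ADSCs alone, with 2 counts of miR-18a-5p and 4 of miR-18a-3p there and 0 in both Exo-AT libraries. It was not tested. Its levels in Exo-ADSCs were 31.0 and 62.0 CPM, where 3 counts would be 237 CPM at the depth of Exo-AT replicate 1 and 20.3 CPM at that of replicate 2.

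Of the opposite-arm products, miR-106b-3p was counted in all libraries. It had 3 and 53 counts in Exo-AT against 15 in Exo-ADSCs, or 237 and 359 CPM against 233 CPM, and its log2 fold change was 0.45 (SE 1.08, adjusted p = 0.766, edgeR). The sign turned with tags of 20 to 25 nt (-0.49) and with tags holding bases 3 to 12 (-0.39), and the value was 0.025 without Exo-AT replicate 2. The 5p arm gave 0 of 3 and 29 of 82 counts (35.4%) of the miR-106b hairpin in Exo-AT against 14 of 29 (48.3%, 31.4 to 65.6) in Exo-ADSCs. A tag with a mismatch in capitals (G10T, counted from the tag's 5′ end) made up 3 of 3 and 11 of 53 counts of miR-106b-3p in Exo-AT against 0 of 15 in Exo-ADSCs.
miR-106b-3p tag with the change: ccgcactgtTggtacttgct
miR-106b-3p tag as in the hairpin: ccgcactgtGggtacttgct
The tag as in the hairpin had 0 and 15 counts in Exo-AT against 2 in Exo-ADSCs. miR-25-5p had 0 and 3 counts in Exo-AT against 0 in Exo-ADSCs. The forms with no count were miR-17-3p, miR-19a-5p, miR-19b-5p, miR-20a-3p, miR-92a-5p and miR-93-3p.

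The balance of the seeds was also compared. Among guide-arm tags that hold bases 3 to 12, the miR-92 seed made up 91.9% and 88.7% in Exo-AT against 87.9% in Exo-ADSCs. The miR-17 seed made up 5.91% and 9.16% in Exo-AT against 10.7% in Exo-ADSCs. The miR-92 seed thus held the largest share of member tags in each library, while its leading member was miR-25-3p in Exo-AT and miR-92a-3p in Exo-ADSCs. The lead of miR-92a-3p in Exo-ADSCs rested on short tags. With tags of 20 to 25 nt it had 113 counts there, against 114 for miR-25-3p.

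The tags also show how the ends of the molecules varied. For miR-25-3p the main lengths were shared and others were not. Tags of 22 nt made up 64.3% and 57.7% of its counts in Exo-AT against 56.3% in Exo-ADSCs, and a second peak at 19 nt made up 14.0% and 17.04% in Exo-AT against 15.5% in Exo-ADSCs. The sequences at both peaks share their start and differ at the 3′ end.
miR-25-3p, 22 nt: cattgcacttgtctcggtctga
miR-25-3p, 19 nt: cattgcacttgtctcggtc
The 22 nt sequence had 68 and 669 counts in Exo-AT against 75 in Exo-ADSCs, and the 19 nt one had 14 and 198 in Exo-AT against 22 in Exo-ADSCs. A length of 20 nt, between the peaks, made up 2.33% and 3.31% in Exo-AT against 5.63% in Exo-ADSCs. Tags of 21 nt made up 16.3% (10.9 to 23.6) and 17.04% (15.2 to 19.04) in Exo-AT against 7.75% (4.38 to 13.3) in Exo-ADSCs. Tags of 25 and 26 nt made up 0% in both Exo-AT libraries against 7.75% and 4.23% in Exo-ADSCs.

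For miR-92a-3p the lengths in the Exo-AT libraries differed from those in the Exo-ADSCs library beyond counting error. Tags of 22 nt made up 40.0% and 40.5% of its counts in Exo-AT against 18.3% (13.9 to 23.9) in Exo-ADSCs. Tags of 18 nt made up 0% and 2.75% in Exo-AT against 25.3% (20.1 to 31.3) in Exo-ADSCs, where they were the most frequent length.
miR-92a-3p, 22 nt, chromosome 15 copy: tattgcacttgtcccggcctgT
miR-92a-3p, 22 nt, X-linked copy: tattgcacttgtcccggcctgA
miR-92a-3p, 18 nt: tattgcacttgtcccggc
The 22 nt tag that matches the chromosome 15 copy had 16 and 243 counts in Exo-AT against 38 in Exo-ADSCs. The 18 nt tag had 0 and 18 in Exo-AT against 58 in Exo-ADSCs. The capital marks the last base, at which the hairpins of the copies differ. It lies beyond the 21 nt of the mature sequence, and whether it was copied from the hairpin or added later was not tested. Tags that match only the chromosome 15 copy, with no mismatch, had 16 and 275 counts in Exo-AT against 44 in Exo-ADSCs, whereas those that match only the X-linked copy had 0 and 6 counts in Exo-AT against 0 in Exo-ADSCs. Shorter tags were a feature of the whole Exo-ADSCs library. Tags of 20 to 25 nt made up 84.7% and 83.1% of member counts in Exo-AT against 60.2% in Exo-ADSCs, and 80.7% and 84.5% of the other named miRNAs in Exo-AT against 44.6% in Exo-ADSCs. The part of tag length in the group differences was not tested beyond the values with tags of 20 to 25 nt.

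**Figure D4:**
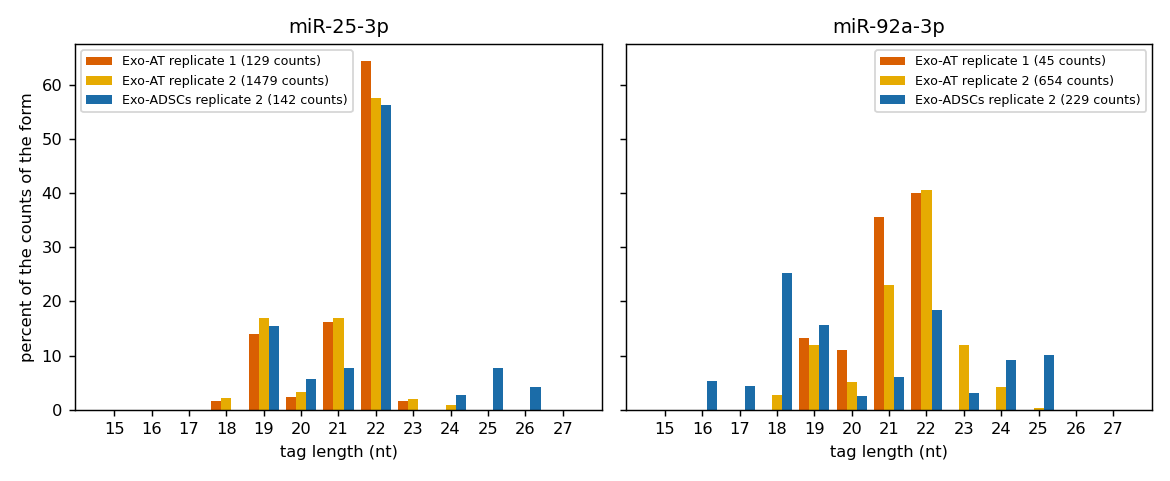
Percent of the counts of miR-25-3p (left) and miR-92a-3p (right) at each tag length in each library, with the number of counts in the legend. miR-25-3p peaks at 22 and 19 nt in all 3 libraries, while miR-92a-3p peaks at 22 nt in Exo-AT and at 18 nt in Exo-ADSCs.

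The 5′ ends differed as well. Tags that begin 2 to 5 bases before the mature start made up 0 of 186 and 3 of 2432 (0.123%) member counts in Exo-AT, against 92 of 441 (20.9%, 17.3 to 24.9) in Exo-ADSCs replicate 2. In Exo-ADSCs they were 14.8% of miR-25-3p, 21.4% of miR-92a-3p, 34.5% of miR-93-5p and 60.0% of miR-106b-3p (9 of 15 counts). Over all other named miRNAs, counted from the usual start of each, the share was 0.0262% and 0.0528% in Exo-AT against 10.4% in Exo-ADSCs. Most of the 10.4% was let-7a, singled out after its values were seen, and without it the share in Exo-ADSCs was 1.44%.

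Most of these early starts did not match the hairpins exactly. Of the 92 counts in Exo-ADSCs, 88 were listed with a mismatch or an inserted letter. Such a change can cover only some of the letters before the mature start, as with A2C in tags of miR-92a-3p that begin with ACG. The letters ACG stood before 4 different forms and made up 44 of the 92 counts. Letters before the mature start are in capitals, whether or not they match the hairpin.
miR-93-5p with ACG: ACGcaaagtgctgttcgtgcaggtag
miR-25-3p with CAT: CATcattgcacttgtctcggtctga
miR-25-3p with AACG: AACGcattgcacttgtctcggtctga
These tags had 5, 11 and 6 counts in Exo-ADSCs and 0 in both Exo-AT libraries. A single base before the mature start had the opposite pattern, with 4.30% and 3.95% of member counts in Exo-AT against 0% in Exo-ADSCs. This was not particular to the members: over all other named miRNAs the share was 5.11% and 6.19% in Exo-AT against 0.547% in Exo-ADSCs.

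In Exo-AT, tags of miR-25-3p often carried C1A, a change at the base just before the seed. Of its tags that start at the mature start, 11 of 119 (9.24%, 5.24 to 15.8) and 148 of 1373 (10.8%, 9.25 to 12.5) began with A in Exo-AT, against 0 of 116 in Exo-ADSCs.
miR-25-3p with A first: Aattgcacttgtctcggtctga
This sequence alone had 7 and 90 counts in Exo-AT against 0 in Exo-ADSCs. miR-93-5p, which also begins with C, had 0 of 11 and 10 of 154 (6.49%) such counts in Exo-AT against 0 of 19 in Exo-ADSCs. The other members that begin with C had none: miR-106b-3p had A first in 0 of 32 counts of Exo-AT replicate 2 against 0 of 6 in Exo-ADSCs, and miR-17-5p in 0 of 12 counts of Exo-AT replicate 2. The change was not particular to the clusters: other miRNAs that begin with C had A first in 8.01% and 11.03% of counts in Exo-AT against 0.332% in Exo-ADSCs. Tags of miR-92a-3p, which begin with T, had A first in 0 of 38 and 0 of 569 counts in Exo-AT against 0 of 180 in Exo-ADSCs.

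**Figure D5:**
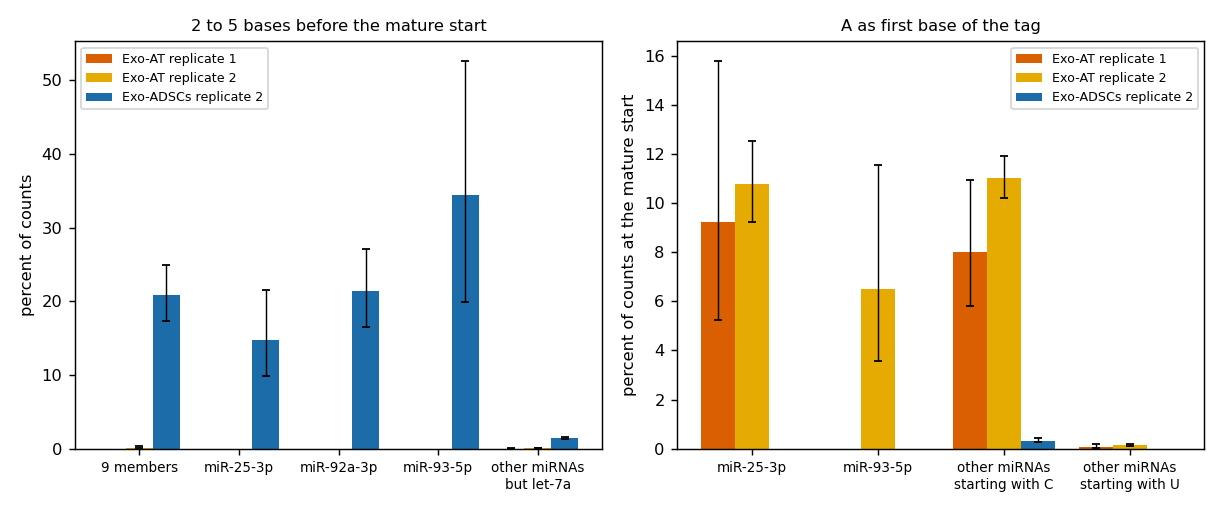
Left, percent of counts that begin 2 to 5 bases before the mature start. Right, percent of counts at the mature start whose first base is A, for members and other miRNAs beginning with C or U. Bars have 95% Wilson intervals where the count is above 0. Starts 2 to 5 bases early are at 20.9% of member counts in Exo-ADSCs replicate 2, while A first is at 9.24% and 10.8% of miR-25-3p in the Exo-AT libraries and at 0% in Exo-ADSCs.

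The authors' deposited table of 45 miRNAs raised in Exo-AT gives normalized reads for all 4 libraries, including Exo-ADSCs replicate 1, and lists 3 members. Because the table was selected as raised in Exo-AT on these samples, its values are a description.

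In the authors' deposited table miR-25-3p stood at 8037 and 4241 normalized reads in the columns headed exo-at1 and exo-at2, against 362 and 198 in those headed exo-adsc1 and exo-adsc2. In the authors' deposited table miR-93-5p stood at 861 and 686 in Exo-AT against 22 and 40 in Exo-ADSCs. For both, all Exo-AT values were above all Exo-ADSCs values. The values of miR-92a-3p in the authors' deposited table were 2753 and 626 in Exo-AT against 1923 and 202 in Exo-ADSCs, so that one Exo-ADSCs library lay between the Exo-AT libraries. The ratio of miR-25-3p to miR-92a-3p from the authors' deposited table was 2.92 and 6.77 in Exo-AT and 0.188 and 0.980 in Exo-ADSCs. The columns do not hold the same measure, so these values compare only roughly. The column headed exo-at1 followed all tags of 1 hairpin, and exo-at2 the most abundant tag for 27 of 43 miRNAs. The column headed exo-adsc1 had no tag counts to be set against.

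Seed relatives outside the clusters were scarce. Of 7 such miRNAs (miR-20b, miR-106a, miR-18b, miR-363, miR-32, miR-92b and miR-367), 4 had a count and none passed the filter. The absence of miR-106a is a matter of naming. RefSeq gives the symbol Mir106a to the X-linked copy of miR-17, whose tags were counted here as miR-17. miR-32-5p, which carries the miR-92 seed, had 0 and 6 counts in Exo-AT against 3 in Exo-ADSCs. miR-363-3p had 0 and 3 counts in Exo-AT against 2 in Exo-ADSCs, and miR-92b-3p had 0 and 3 in Exo-AT against 0 in Exo-ADSCs. The 4 counts of miR-20b-3p, all in Exo-ADSCs, held no mature core.

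Over the 3 libraries, the tested miRNAs whose pattern of log2 CPM was nearest to that of miR-25-3p were miR-101a-3p (Euclidean distance 0.0675), miR-341-3p (0.100) and miR-425-5p (0.101). miR-101a-3p was at 14673 and 13578 CPM in Exo-AT against 3148 CPM in Exo-ADSCs. The likeness rests on 3 points and is a description.

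Marker miRNAs of other cell types were read in the same fit. Of 20 tested forms over 5 lists, 4 were called higher in Exo-AT and 5 lower, near the 19.1% and 19.7% of all tested miRNAs. The erythroid list (miR-486, miR-451 and miR-144) summed to 36761 and 153737 CPM in Exo-AT against 50539 CPM in Exo-ADSCs, with 1 of 2 tested forms higher in Exo-AT and miR-144 at 0 in Exo-AT replicate 1. The Exo-AT libraries differed widely in this sum and lay on both sides of Exo-ADSCs. The leukocyte list (miR-142, miR-150, miR-155 and miR-223) summed to 473 and 1049 CPM in Exo-AT against 233 CPM in Exo-ADSCs, where miR-150, miR-155 and miR-223 were at 0, and miR-223 was also at 0 in Exo-AT replicate 1. Of its 3 tested forms 1 was higher in Exo-AT. The endothelial miR-126a summed to 2761 and 4697 CPM in Exo-AT against 496 CPM in Exo-ADSCs, with 1 of 2 tested forms higher in Exo-AT. The stromal list (miR-143, miR-145, miR-199a, miR-214 and miR-21) summed to 166921 and 145025 CPM in Exo-AT against 286826 CPM in Exo-ADSCs, with 4 of 8 tested forms lower in Exo-AT and miR-145 at 0 in Exo-AT replicate 1. The epithelial list of 7 miRNAs summed to 1657 and 1252 CPM in Exo-AT against 3598 CPM in Exo-ADSCs, with 1 of 5 tested forms higher and 1 lower in Exo-AT. The part of these cell types in the level of miR-25-3p or miR-19b-3p was not tested.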

How the data were processed

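The counts were deposited by the authors per read sequence and hairpin, per the file headers, and a tag on several hairpins had its reads divided between them. Novoalign 2.07.11 and rn6 are named in the submitters' processing notes. How reads were trimmed and hairpins predicted is not given in the sources used here. Normalized reads in the authors' deposited table were used as a score, since their factor is not given, and described without a test. The file of Exo-ADSCs replicate 1 holds an alignment summary and was not used. Members and lists were chosen with earlier results of these data known.

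Tags on named hairpins were summed by arm, decided by the tag's midpoint, and copies were merged, giving 348 forms. edgeR 4.0.16 (R 4.3.3, quasi-likelihood, TMM factors 1.39, 1.09 and 0.663 for Exo-AT 1, Exo-AT 2 and Exo-ADSCs 2, default filter with a minimum count of 10 and minimum total of 15) was fitted to all forms. Two-sided p-values, with Benjamini-Hochberg adjustment over 183 forms, were called at 0.05. With 1 residual degree of freedom, the lone Exo-ADSCs library is assumed to vary like the Exo-AT pair (common dispersion 0.115). DESeq2 1.42.0, other scalings, filters, lengths and alignment classes were tried. The named forms are every counted member arm, the seed relatives and the 3 nearest patterns to the most abundant member arm.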

Additional observations from a re-analysis of the deposited data

How the results depend on the processing

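miR-25-3p was called in every alternative with a test, and its log2 fold change was 2.18 to 2.21 with either Exo-AT library left out. For miR-19b-3p the range with either left out was 2.76 to 3.28. For the uncalled forms it was -6.86 to -2.18 for miR-17-5p, -3.40 to 2.08 for miR-20a-5p, -0.00056 to 0.32 for miR-92a-3p, -6.09 to -0.14 for miR-106b-5p, 0.025 to 0.62 for miR-106b-3p and 0.94 to 1.25 for miR-93-5p, each lowest without Exo-AT replicate 2. The lowest values of miR-17-5p, miR-20a-5p and miR-106b-5p rest on 0 Exo-AT counts, so their size depends on the prior count. miR-19b-3p lost its call with DESeq2's size factors (2.71), no filter (3.03), DESeq2 (2.82), tags of 20 to 25 nt (1.51), tags on 1 miRNA only (2.78), tags without mismatch (2.38) and tags holding bases 3 to 12 (2.26). The count of member forms called higher, 2 as reported, was 1 under each of these but tags without mismatch, 4 with total-count scaling and 5 with scaling to all assigned counts. The counts of all miRNAs called higher were 23 with DESeq2's size factors, 21 with DESeq2 and 107 with all assigned counts, against 35 as reported, and those lower were 19 with total-count scaling, 21 with DESeq2 and 5 with all assigned counts, against 36. With both Exo-AT libraries kept, uncalled log2 fold changes turned sign for miR-17-5p (0.67 with all assigned counts), miR-92a-3p (-0.10 with DESeq2's size factors, -0.10 with DESeq2 and -0.029 with tags on 1 miRNA only), miR-106b-5p (0.17 with total-count scaling, 0.070 without mismatch and 2.59 with all assigned counts) and miR-106b-3p (-0.49 at 20 to 25 nt and -0.39 with bases 3 to 12). The cause was not tested. The members' share of counts was 1.93% without mismatch and 1.90% with bases 3 to 12 in Exo-AT replicate 2, 0.645% at 20 to 25 nt in Exo-ADSCs replicate 2, and 1.29%, 1.37% and 0.0650% of all assigned counts in Exo-AT 1, Exo-AT 2 and Exo-ADSCs 2. Tags holding bases 3 to 12 and scaling to all assigned counts were chosen after seeing the data. No paired analysis was possible because the libraries with tag counts share only replicate number 2. Exo-AT replicate 1, with 9134 named counts, limits what can be said of rare forms, since 3 counts there are 237 CPM after TMM scaling.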
